A study of Homo sapiens and Mus musculus with 160 samples.

Results

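The 9 genes described here set the level of the polyamines putrescine, spermidine and spermine: ODC1, AMD1, SRM and SMS make them, SAT1 and SMOX turn them over, and OAZ1, OAZ2 and AZIN1 govern ODC1 protein. They were chosen by symbol, ignoring case, in the deposited tables of RNA half-lives. All 9 were found among 17985 genes of mouse NIH-3T3 cells and 8 among 18165 genes of human K562 cells; AMD1 in K562 was not analysed here. K562 is a human leukaemia line with erythroid features, and NIH-3T3 is a mouse fibroblast line. Both were untreated, and they differ in species as well as in cell type. RNA was labelled with 4-thiouridine for 0, 15, 30, 60 or 120 minutes and sequenced from 5 fractions, namely whole cells, nuclei, chromatin, the cytoplasm and polysomes. Each line had 2 replicate time courses, 50 samples per line, and 60 further K562 samples with shRNAs were not used here. All 10 erythroid marker genes had values in K562 and 0 of 10 in NIH-3T3, whereas all 10 fibroblast markers had values in NIH-3T3 and 4 of 10 in K562. Markers were looked up by symbol, ignoring case. A marker with no gene of that symbol in the other species could not be found there. The counts in the other line thus depend on gene naming as well.

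Polyamines are small positively charged molecules that bind RNA and are needed for growth and translation. Cells hold their level by feedback on the same few proteins, most of which turn over fast: a high polyamine level raises antizyme, and antizyme binds ornithine decarboxylase and carries it to the proteasome. The antizyme inhibitor resembles ornithine decarboxylase, lacks its activity, and binds antizyme in its place. Most of this control is known at the level of translation and protein decay, and the tables give the other side, the time each mRNA spent at each step of its life.

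The antizyme mRNAs carry the sequence by which polyamines are sensed. Ribosomes meet a stop codon early in the message, and only by shifting the reading frame by 1 base do they make the full protein, more often so when polyamines are high. The GENCODE annotation of release 29 (build GRCh38, the same as hg38) shows the shift by leaving 1 base out of the coding exons, at position 2271443 of chromosome 19 for OAZ1 (plus strand) and at position 64691515 of chromosome 15 for OAZ2 (minus strand). The stretches around these sites are shown because they are the feature that sets both mRNAs apart from the other members. In capitals stand the last sense codon, the stop codon and the base after it. The sequences lie at chr19:2271416-2271470 and chr15:64691488-64691542 and are written along the mRNA.
OAZ1: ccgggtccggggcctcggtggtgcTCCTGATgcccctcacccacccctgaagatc
OAZ2: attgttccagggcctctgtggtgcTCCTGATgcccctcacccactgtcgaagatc
Of the 55 bases, 45 (81.8%) were identical between OAZ1 and OAZ2. In the coding model, 68 codons precede the omitted base in OAZ1 and 32 in OAZ2, of 228 and 189 codons in all.

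Half-lives below are the authors' posterior modes in minutes, with replicate 1 always before replicate 2, and an interval is the authors' 95% credible interval, which covers the fit within 1 time course. All 108 member values were fitted in NIH-3T3 and 95 of 96 in K562, where SMOX lacked a polysome loading value in replicate 1. Depth is unknown here, since the tables give no read counts. Replicates of the typical gene differed by 1.11- to 1.57-fold for all kinds of half-life in both lines except polysome loading in K562, where they differed by 2.35-fold. Labelling ran from 15 to 120 minutes, so the longest whole-cell half-lives and loading half-lives of a few minutes rest on the fitted model beyond the times sampled. Processed copies of several of these genes exist in both genomes, and how reads shared with a copy were assigned is not given in the sources used here.

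Whole-cell half-life is given first, by the members' roles. Among the synthesis enzymes, ODC1, the first and rate-limiting enzyme, had a whole-cell half-life of 640 (interval 600 to 690) and 680 (620 to 760) minutes in K562 and of 350 (320 to 380) and 300 (290 to 320) minutes in NIH-3T3. This placed ODC1 at percentile 92.1 of 11697 K562 genes and at percentile 90.2 of 12228 NIH-3T3 genes, so the mRNA of this short-lived enzyme was among the long-lived mRNAs of both lines. SMS, which turns spermidine into spermine, reached 1300 (1200 to 1600) and 1200 (1000 to 1600) minutes in K562, at percentile 98.5, against 260 (230 to 300) and 260 (230 to 290) minutes in NIH-3T3. SRM, which makes spermidine, had 470 (410 to 530) and 410 (350 to 480) minutes in K562 and 230 (200 to 270) and 210 (190 to 230) minutes in NIH-3T3. The median of all genes was longer in K562 as well, 208 minutes against 110 minutes in NIH-3T3, and 60.2% of 8913 genes passed as longer by limma below. All 3 synthesis enzymes with values in K562 had longer half-lives there, without overlap between the lines. Amd1, which supplies the aminopropyl donor, was the exception among them in NIH-3T3 at 86 (81 to 91) and 98 (94 to 100) minutes, below the median of all genes of 110 minutes in each NIH-3T3 table.

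The roles were not kept apart by half-life. SAT1, the acetyltransferase that starts polyamine breakdown and whose transcripts can include an exon with early stop codons, had the shortest whole-cell half-life in K562, 80 (69 to 93) and 88 (70 to 110) minutes, against medians of all genes of 210 and 200 minutes. In NIH-3T3 Sat1 had 110 (98 to 120) and 110 (100 to 120) minutes, at the median of that line. SMOX, which oxidises spermine back to spermidine, had 140 (74 to 260) and 240 (100 to 540) minutes in K562 and 120 (93 to 150) and 150 (120 to 190) minutes in NIH-3T3, with wide and overlapping intervals. OAZ1, the main antizyme, was long-lived in both lines, with 1000 (950 to 1100) and 1000 (900 to 1100) minutes in K562 and 410 (360 to 450) and 400 (360 to 440) minutes in NIH-3T3, at percentiles 97.2 and 93.9. OAZ2, another antizyme, had 360 (310 to 410) and 390 (320 to 490) minutes in K562 and 210 (170 to 260) and 310 (260 to 380) minutes in NIH-3T3. AZIN1, the antizyme inhibitor, had 200 (180 to 220) and 160 (150 to 180) minutes in K562 and 130 (130 to 140) and 120 (120 to 130) minutes in NIH-3T3. The enzyme ODC1 and its antizyme OAZ1 thus stood near the top in both lines, and the inhibitor AZIN1 stood near the middle, at percentiles 43.0 and 56.1.

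**Figure D1:**
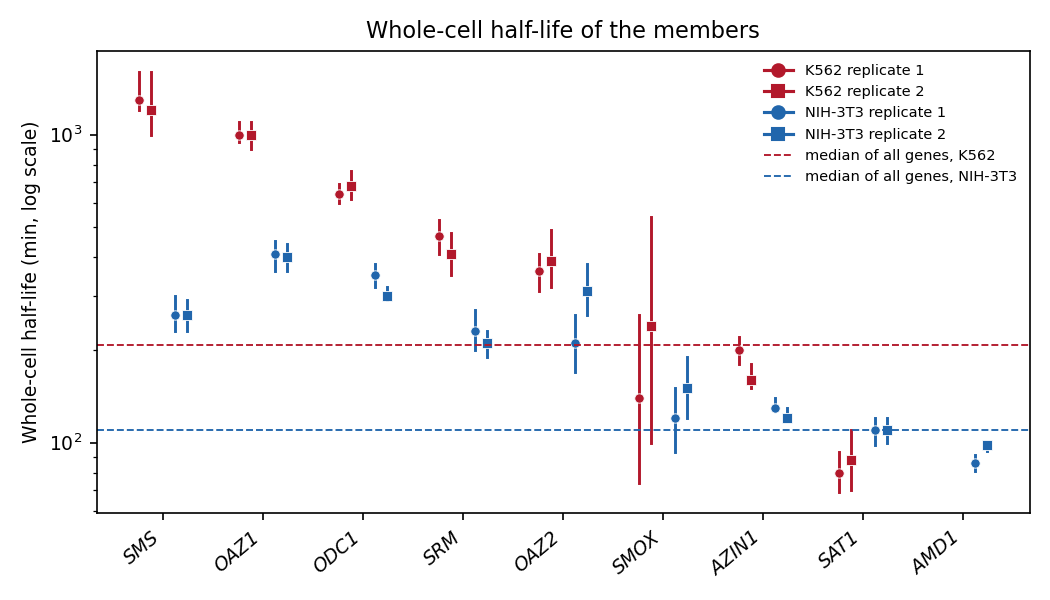
Whole-cell half-life in minutes on a log axis for each member, with the authors' posterior mode (circle, replicate 1; square, replicate 2) and 95% credible interval (line) in K562 (red) and NIH-3T3 (blue); dashed lines mark the median of all genes in each line. SMS, OAZ1, ODC1 and SRM lie higher in K562, as does the median of all genes. SAT1 lies lower there, with the interval of K562 replicate 2 overlapping those of NIH-3T3, and AMD1 is shown for NIH-3T3.

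The order of whole-cell half-lives was compared pair by pair, counting a pair as apart where the intervals did not overlap in both replicates in the same direction. In K562, 22 of 28 pairs were apart, and the members spanned a 14.9-fold range from SMS to SAT1. Neighbours that did not differ beyond their intervals were SMS and OAZ1, SRM and OAZ2, OAZ2 and SMOX, and SMOX and AZIN1. In NIH-3T3, 24 of 36 pairs were apart over a 4.41-fold range from Oaz1 to Amd1, and no neighbours in the order were apart. The median of the members was 407 minutes in K562, beside 208 minutes for all genes, with 5 of 8 members above it. In NIH-3T3 it was 220 minutes beside 110 minutes, with 8 of 9 above.

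For some members the whole-cell value was far above the sum of the nuclear and cytoplasmic ones, which the authors fitted separately. In K562 the ratio of the whole-cell half-life to that sum was 3.42 and 2.86 for SMS, 3.13 and 2.94 for OAZ1 and 2.46 and 2.36 for ODC1, beside a median of 1.12 over 11627 genes. In NIH-3T3 it was 1.67 and 1.49 for Odc1 and 1.46 and 1.57 for Oaz1, beside a median of 0.889 over 11767 genes. SAT1 was on the other side in both lines, with 0.500 and 0.815 in K562 and 0.679 and 0.663 in NIH-3T3. The whole-cell differences between members are therefore not a plain sum of the steps described next.

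In the cell, the members divided their time differently between nucleus and cytoplasm. In the nucleus of K562, the half-life of SRM was 50 (48 to 54) and 56 (53 to 60) minutes, whereas in the cytoplasm it reached 280 (250 to 310) and 260 (230 to 290) minutes. In NIH-3T3 Srm had 150 (130 to 170) and 110 (98 to 130) minutes in the nucleus and 26 (18 to 31) and 40 (29 to 47) minutes in the cytoplasm. The longer step of SRM was thus the cytoplasm in K562 and the nucleus in NIH-3T3, with all intervals apart. ODC1 stayed 140 (140 to 150) and 200 (190 to 200) minutes in the nucleus and 120 (110 to 130) and 88 (81 to 98) minutes in the cytoplasm of K562. In NIH-3T3 the nuclear values of Odc1 were 180 (160 to 190) and 170 (160 to 180) minutes and the cytoplasmic ones 30 (25 to 35) and 32 (27 to 38) minutes. The nucleus was the longer step for ODC1 in both lines. SMS had the longest nuclear half-life of the members in K562, 160 (150 to 170) and 200 (190 to 220) minutes, beside 220 (190 to 250) and 220 (180 to 260) minutes in the cytoplasm, so its steps were not apart in both replicates. In NIH-3T3 Sms had 120 (110 to 130) and 98 (91 to 110) minutes in the nucleus and the longest cytoplasmic half-life of the members, 160 (130 to 190) and 220 (190 to 260) minutes. Amd1 in NIH-3T3 had 62 (57 to 66) and 61 (56 to 64) minutes in the nucleus and the shortest cytoplasmic half-life of the members, 21 (20 to 22) and 18 (17 to 19) minutes.

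SAT1 had the shortest nuclear half-life of the members. It was 30 (28 to 31) and 32 (30 to 34) minutes in K562 and 42 (38 to 46) and 46 (42 to 50) minutes in NIH-3T3. Its cytoplasmic half-life was longer in every table, 130 (110 to 160) and 76 (61 to 93) minutes in K562 and 120 (100 to 140) in both NIH-3T3 replicates, at percentile 93.1 of NIH-3T3 genes. OAZ1 had 130 (130 to 140) and 200 (190 to 210) nuclear minutes in K562 against 190 (170 to 200) and 140 (120 to 150) cytoplasmic minutes, so the longer step changed between replicates. In NIH-3T3 its nuclear values, 170 (160 to 190) and 160 (150 to 180) minutes, were above the cytoplasmic ones, 110 (93 to 130) and 94 (79 to 110) minutes. AZIN1 also changed sides between the K562 replicates, with 61 and 74 nuclear minutes against 72 and 58 cytoplasmic minutes. In NIH-3T3 its 80 and 85 nuclear minutes were above its 32 and 26 cytoplasmic minutes. OAZ2 had the longer step in the cytoplasm in K562, with 140 and 130 minutes against 58 and 83 minutes, and intervals that overlapped in NIH-3T3 replicate 2. SMOX had overlapping intervals in K562 and the longer step in the nucleus in NIH-3T3, 110 and 100 minutes against 54 and 46 minutes.

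By the rule that intervals be apart in both replicates, the nucleus was the longer step for 1 of 8 members in K562 (ODC1), beside 24.2% of 12276 genes, and the cytoplasm for 3 (SAT1, SRM and OAZ2), beside 26.4%. In NIH-3T3 the nucleus was longer for 6 of 9 (Odc1, Amd1, Srm, Smox, Oaz1 and Azin1), beside 51.8% of 11837 genes, and the cytoplasm for 1 (Sat1), beside 5.71%. The member shares are near those of all genes, and no test was made on them. With each K562 replicate alone, 7 members in replicate 1 and 6 in replicate 2 were apart. When modes also had to lie 2-fold apart, SAT1 and SRM remained in K562.

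**Figure D2:**
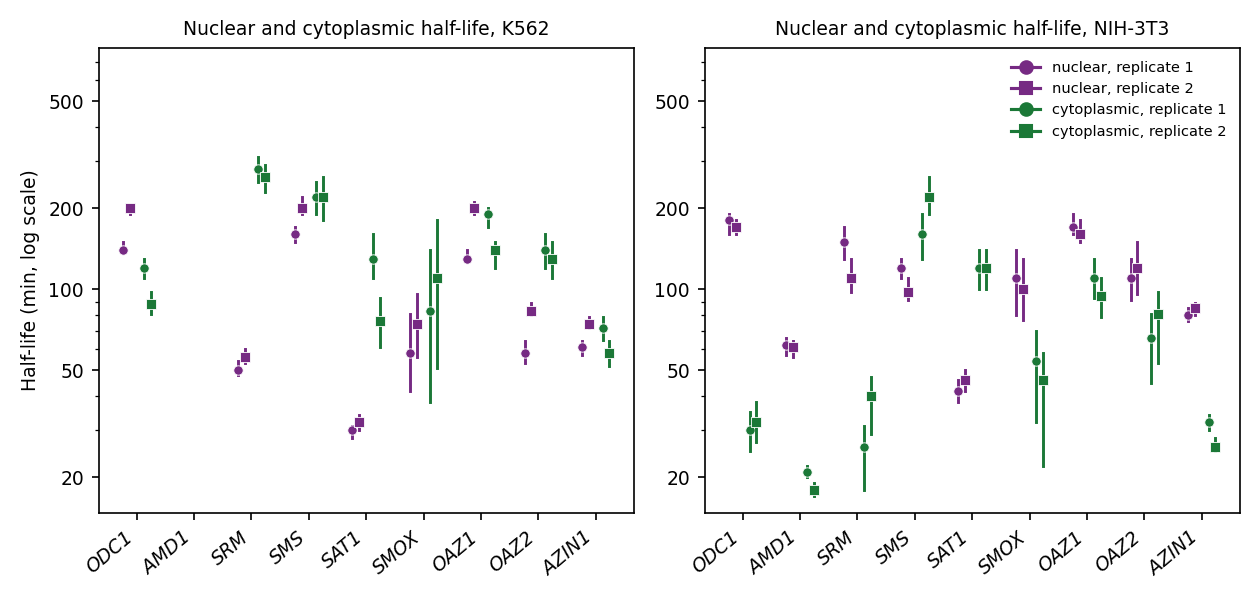
Nuclear (purple) and cytoplasmic (green) half-life in minutes on a log axis for each member in K562 (left) and NIH-3T3 (right), with posterior modes (circle, replicate 1; square, replicate 2) and 95% credible intervals (lines). SRM reverses between the lines, SAT1 is lowest in the nucleus of both, and ODC1 is longer in the nucleus of both; AMD1 is shown for NIH-3T3.

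Within the nucleus, release from chromatin and export were given separately. Export of ODC1 in K562 took 110 (110 to 120) and 160 (160 to 170) minutes, longer than its chromatin half-life of 53 (50 to 57) and 58 (57 to 62) minutes. The same held for OAZ1, with 110 (100 to 120) and 170 (160 to 170) minutes for export against 47 (44 to 50) and 58 (55 to 63) minutes on chromatin. SMS, with 120 (110 to 130) and 160 (140 to 180) minutes for export against 61 (54 to 68) and 69 (61 to 77) minutes, and OAZ2, with 43 (36 to 49) and 69 (64 to 76) against 30 (26 to 33) and 35 (31 to 40) minutes, followed the same order. ODC1, OAZ1 and SMS were thus the slow-export members of K562, at percentiles 86.7, 87.4 and 87.6 of export half-life. SAT1 was the opposite case, with an export half-life of 5.0 (2.4 to 6.5) and 6.5 (3.1 to 6.8) minutes at percentile 3.15, against 32 (29 to 34) and 34 (31 to 38) minutes on chromatin. SRM, AZIN1 and SMOX did not have intervals apart in both K562 replicates.

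NIH-3T3 export values were less repeatable. Oaz1 export was 130 (110 to 150) minutes in replicate 1 and 19 (10 to 31) minutes in replicate 2, while its chromatin half-life was 69 (66 to 74) and 160 (150 to 170) minutes. Odc1 went from 74 (57 to 89) to 18 (10 to 27) minutes of export, Srm from 79 (51 to 100) to 20 (11 to 31) and Sms from 61 (47 to 74) to 13 (8.6 to 19), so replicates of these members differed by 3.95- to 6.84-fold with intervals apart. Replicate 2 of all genes was also lower for export (median 28 against 41 minutes) and higher on chromatin (72 against 54 minutes). Azin1 and Amd1 had export half-lives of 19 (12 to 24) and 10 (5.5 to 14) minutes and of 34 (27 to 38) and 19 (13 to 24) minutes. None of the 36 member pairs was apart in both replicates for NIH-3T3 export, whereas 19 of 28 were in K562.

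Chromatin was the longer of these steps for 1 of 8 members in K562 (SAT1), beside 26.9% of 12220 genes, and export for 4 (ODC1, SMS, OAZ1 and OAZ2), beside 19.8%. In NIH-3T3 chromatin was longer for 4 of 9 (Odc1, Amd1, Oaz2 and Azin1), beside 29.8% of 12182 genes, and export for 0, beside 1.55%. Replicate 2 of NIH-3T3 alone gave chromatin as longer for 8 of 9 members and replicate 1 alone for 4, with export longer for Oaz1.

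**Figure D3:**
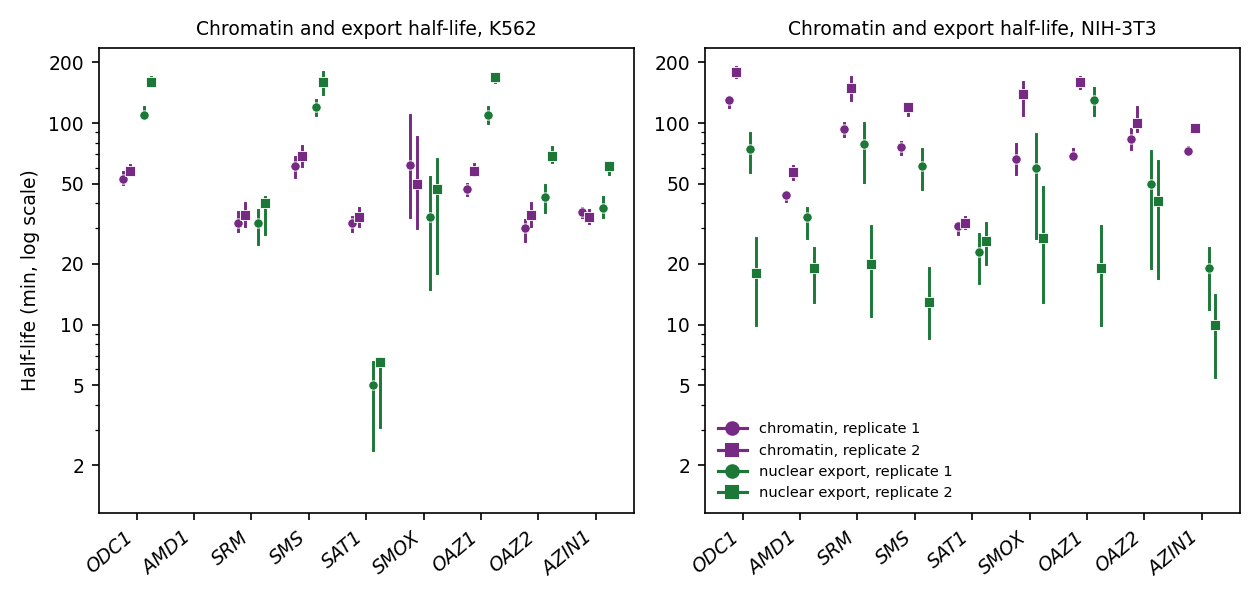
Chromatin (purple) and nuclear export (green) half-life in minutes on a log axis for each member in K562 (left) and NIH-3T3 (right), with posterior modes (circle, replicate 1; square, replicate 2) and 95% credible intervals (lines). In K562 export exceeds chromatin for ODC1, SMS, OAZ1 and OAZ2 and SAT1 export is the lowest value; in NIH-3T3 the export values of replicate 2 lie below those of replicate 1 for 8 of 9 members, Sat1 being the exception.

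The enzyme, its antizyme and the antizyme inhibitor were loaded onto polysomes fast in both lines. ODC1 had a loading half-life of 0.55 (0.20 to 0.91) and 1.2 (0.43 to 2.0) minutes in K562 and of 2.8 (1.2 to 4.1) and 2.2 (0.94 to 3.2) minutes in NIH-3T3. OAZ1 had 2.6 (1.1 to 3.9) and 3.0 (1.5 to 4.3) minutes in K562 and 1.7 (0.61 to 2.8) and 2.5 (0.89 to 4.4) minutes in NIH-3T3. AZIN1 had 1.1 (0.38 to 1.7) and 2.5 (0.99 to 4.0) minutes in K562 and 4.8 (3.0 to 6.3) and 3.6 (2.4 to 4.7) minutes in NIH-3T3. Their percentiles among all genes were 0.836, 8.73 and 3.32 in K562 and 3.22, 2.24 and 10.2 in NIH-3T3, so all 3 stood at or below percentile 10.2 in both lines. Amd1, whose translation is restrained through a short upstream reading frame when polyamines are high, had 3.3 (1.9 to 4.3) and 4.0 (2.8 to 4.9) minutes in NIH-3T3, at percentile 7.49. All of these values lie far below the shortest labelling time of 15 minutes.

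The remaining members were loaded at a speed near the typical gene, whose median was 8 and 14 minutes in the K562 tables and 11 and 10 minutes in those of NIH-3T3. SRM had 11 and 5.4 minutes in K562 and 9.2 and 8.3 minutes in NIH-3T3, OAZ2 had 11 and 7.3 and then 6.8 and 8.3 minutes, and SMS had 5.6 and 11 and then 17 and 9.8 minutes. The antizyme OAZ2 thus lay at percentiles 44.5 and 33.3, far from OAZ1, though both carry the frameshift site shown above. Loading values of SAT1 and SMOX were not stable. SAT1 had 8.6 (2.1 to 19) minutes in K562 replicate 1 and sat at the upper limit of the fit, 6900 minutes, in replicate 2, outside its own interval of 30 to 2300 minutes. Smox had 2.8 (0.94 to 5.6) and 83 (17 to 260) minutes in NIH-3T3, while Sat1 had 14 and 12 minutes there. Intervals were wide for loading: 9.59% and 20.1% of K562 genes and 36.3% and 41.9% of NIH-3T3 genes had one of at most 4-fold, and 5 of 21 member pairs in K562 and 5 of 36 in NIH-3T3 were apart in both replicates. Cytoplasmic half-life exceeded loading half-life, with intervals apart, for 6 of 7 members in K562 (all but SAT1), beside 55.9% of 11124 genes, and for 8 of 9 in NIH-3T3 (all but Smox), beside 46.8% of 11094 genes; the reverse was found for 0 members, beside 0.243% and 0.514%. In K562 the cytoplasmic half-life of ODC1 was 218 and 73.3 times its loading half-life, at percentile 98.8 of that ratio, and that of Oaz1 in NIH-3T3 64.7 and 37.6 times, at percentile 99.2.

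**Figure D4:**
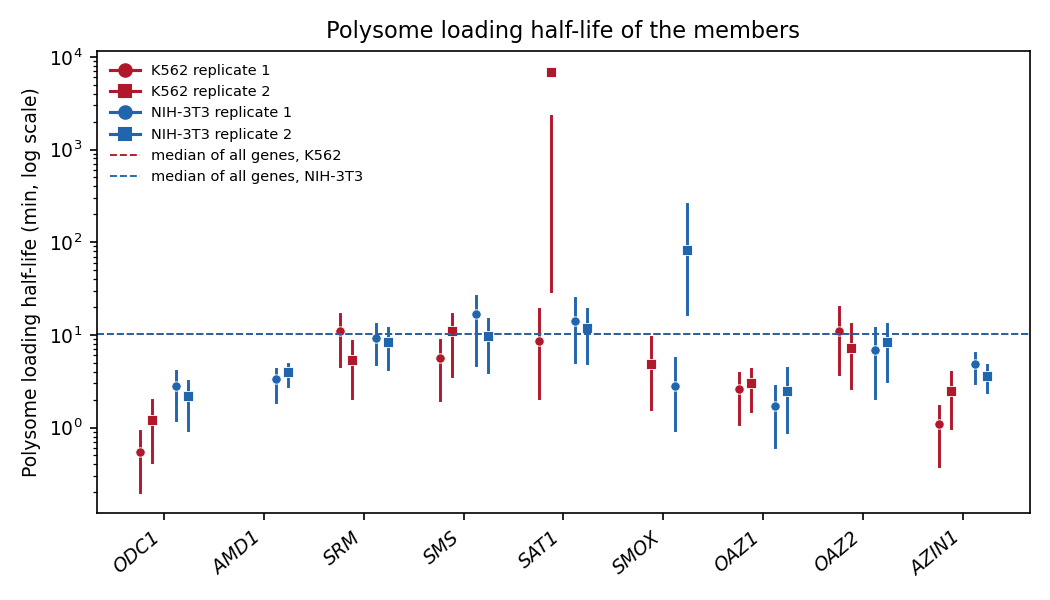
Polysome loading half-life in minutes on a log axis for each member, with posterior modes (circle, replicate 1; square, replicate 2) and 95% credible intervals (lines) in K562 (red) and NIH-3T3 (blue); dashed lines, which coincide, mark the medians of all genes. ODC1, OAZ1 and AZIN1 lie below the median in all tables, and SAT1 in K562 replicate 2 sits at the limit of 6900 minutes, above its interval.

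The authors' call of nuclear degradation, which rests on Bayes factors that compare a model with decay in the nucleus against one without it, was given to 1 member. Sat1 in NIH-3T3 had Bayes factors of 4.7e+14 and 3.2e+09 by the authors' 4-compartment method and of 160 and 12 by their 3-compartment method, and a nuclear degradation half-life of 55 (46 to 96) and 96 (55 to 170) minutes in the model with decay. Its export half-life in that model was 5.9 (2.8 to 12) and 15 (5.9 to 26) minutes, against 23 (16 to 28) and 26 (20 to 32) minutes in the model without decay. The call covered 1 of 9 members assessed in NIH-3T3, beside 4.36% of 11667 genes, and 0 of 6 in K562, beside 3.25% of 11409 genes. By the 4-compartment method SAT1 in K562 had Bayes factors of 7.8 and 0.00015 and AZIN1 of 0.11 and 120, neither of them above 100 in both replicates, and ODC1 and OAZ1 were not assessed there. In the model with decay, SAT1 export in K562 was 5.9 (2.3 to 10) and 3.4 (1.1 to 7.1) minutes. These intervals overlapped those of Sat1 in NIH-3T3. Wherever the SAT1 export half-life is compared between lines by limma, it comes from the model without decay.

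Half-lives were compared between the lines with limma on log2 modes, 2 tables against 2. Differences are K562 minus NIH-3T3 on the log2 scale with their standard error, and p-values were adjusted over all genes paired by symbol. The labels do not say whether replicates were separate cultures, so these p-values measure the spread between tables, which may be technical. Limma also draws the spread of each gene toward that of all genes. On chromatin this left nearly equal standard errors for the members called, so small p-values there do not show closer replicates. Species, cell type and any difference in handling between the lines cannot be told apart. The median of all genes itself differed by 0.84 for whole-cell, 1.11 for cytoplasmic, 0.33 for export, -0.35 for chromatin and -0.14 for loading half-life, and by 0.00 for nuclear half-life, so calls of members are also given after each table was centred on its median.

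Whole-cell half-life was longer in K562 for SMS by 2.26 ± 0.10 (SE, adjusted p = 0.0033), OAZ1 by 1.30 ± 0.09 (0.0033), ODC1 by 1.03 ± 0.13 (0.0071) and SRM by 1.00 ± 0.13 (0.0074), 4 of 8 members beside 60.2% of 8913 genes. SAT1 was shorter in K562, by -0.39 ± 0.10 (adjusted p = 0.039), 1 of 8 beside 5.06%. The credible interval of SAT1 in K562 replicate 2 (70 to 110 minutes) overlapped those in NIH-3T3 (98 to 120 and 100 to 120 minutes). OAZ2 (0.55 ± 0.23), AZIN1 (0.52 ± 0.16) and SMOX (0.45 ± 0.33) did not pass. After centring, SMS remained longer, by 1.30 ± 0.10 (adjusted p = 0.0067), 1 member beside 18.2%, and SAT1 remained shorter, by -1.36 ± 0.13 (adjusted p = 0.0075), 1 member beside 26.3%. OAZ1 was then at 0.34 ± 0.11, ODC1 at 0.06 ± 0.14 and SRM at 0.03 ± 0.12, none of them past the threshold. SMS and SAT1 were thus the members whose whole-cell difference passed against the shift of all genes as well, in opposite directions.

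Cytoplasmic half-life was longer in K562 for 5 of 8 members, beside 53.4% of 9087 genes, and shorter for 0, beside 2.08%. SRM differed most, by 3.06 ± 0.29 (adjusted p = 0.0070), followed by ODC1 (1.73 ± 0.24, adjusted p = 0.0095) and AZIN1 (1.16 ± 0.24, 0.020). SMOX (0.94 ± 0.24, adjusted p = 0.037) and OAZ2 (0.88 ± 0.21, 0.030) also passed. After centring, SRM stayed longer by 1.84 ± 0.30 (adjusted p = 0.031), 1 member beside 9.84%, and SAT1 was shorter by -1.49 ± 0.26 (adjusted p = 0.034), 1 member beside 14%. Centred differences of AZIN1 (-0.058), OAZ2 (-0.34) and SMOX (-0.28) turned to the other sign, without passing.

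On chromatin the difference ran the other way. Residence was shorter in K562 for 5 of 8 members, beside 28.6% of 9380 genes, and longer for 0, beside 10%. The 5 were SRM (-1.82 ± 0.37, adjusted p = 4.9e-05), OAZ2 (-1.49 ± 0.36, 0.00068), ODC1 (-1.46 ± 0.36, 0.00088), AZIN1 (-1.24 ± 0.36, 0.0045) and OAZ1 (-1.01 ± 0.38, 0.027). All but OAZ1 passed after centring as well, at -0.88 to -1.46, which made 4 of 8 beside 26.8%, with 0 longer beside 25.8%. OAZ1 was then at -0.65 ± 0.29 (adjusted p = 0.13). In NIH-3T3 replicate 2 the chromatin half-lives of Srm (150 minutes), Odc1 (180) and Azin1 (94) exceeded the nuclear ones (110, 170 and 85). So did those of Sms (120 against 98 minutes) and Smox (140 against 100 minutes), which were not called on chromatin. Oaz1 had 160 minutes for both. In replicate 1 the chromatin value was the lower one for each of them, and for Oaz2 it was lower in both replicates. The cause of this conflict was not tested.

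Nuclear half-life was shorter in K562 for SRM (-1.28 ± 0.20, adjusted p = 0.020) and SAT1 (-0.50 ± 0.12, 0.044), 2 of 8 beside 20% of 9466 genes, and longer for 0, beside 19.9%. ODC1 (-0.06 ± 0.22, 95% confidence interval -0.69 to 0.56) and OAZ1 (-0.03 ± 0.25, -0.76 to 0.69) did not differ detectably. After centring 4 were shorter (SRM, SAT1, OAZ2 and SMOX), beside 24.5%, and SMS was longer (0.74 ± 0.16, adjusted p = 0.023), 1 beside 25.4%. Export, from the model without decay, was shorter in K562 for SAT1 (-2.10 ± 0.42, adjusted p = 0.044), 1 of 8 beside 4.6% of 9135 genes. It was longer for 0, beside 4.36%. With decay in the model, the SAT1 export intervals of the lines overlapped, as given above. After centring SAT1 export stood at -2.52 ± 0.42 (adjusted p = 0.0088), 1 beside 15.3%, and SMS (1.87 ± 0.56, 0.049) and AZIN1 (1.38 ± 0.38, 0.039) were longer, 2 beside 9.95%. Polysome loading was past the threshold for 0 of 7 members, beside 0.443% of 8358 genes for longer and 0.395% for shorter. By limma, 933 of the 8358 genes had an unadjusted p under 0.05 for loading. In simulated data few genes were changed, 111 and 89 of 9135 for export and 101 and 99 of 8358 for loading. The model recovered 0 of them. The adjusted threshold depends on how many genes differ, and larger shares passed for export here. That simulation therefore does not give the power of these fits, and a lack of calls is not read as a lack of difference. The intervals of the loading difference were wide, from -3.62 to 0.39 for ODC1 and from -1.35 to 2.22 for OAZ1.

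Leaving out 1 table ended most of these calls. With either NIH-3T3 table left out, 0 members and 0 of all genes passed by limma for any of the 6 kinds of half-life. For whole-cell half-life, 4487 and 4550 of 8913 genes then had an unadjusted p under 0.05, and the members' median difference was 0.82 and 0.87, beside 0.78 with all tables. With either K562 table left out, whole-cell half-life was longer for SMS, OAZ1 and SRM, beside 42.7% and 45.3% of genes, and shorter for SAT1, beside 3.98% and 3.53%, whereas ODC1 did not pass. Without K562 replicate 2, SRM passed as shorter on chromatin, beside 8.10%, and ODC1 as longer in the cytoplasm, beside 25.2%. Without K562 replicate 1 neither kind gave a member, and for nuclear half-life and export 0 members and 0 of all genes passed without either K562 table.

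**Figure D5:**
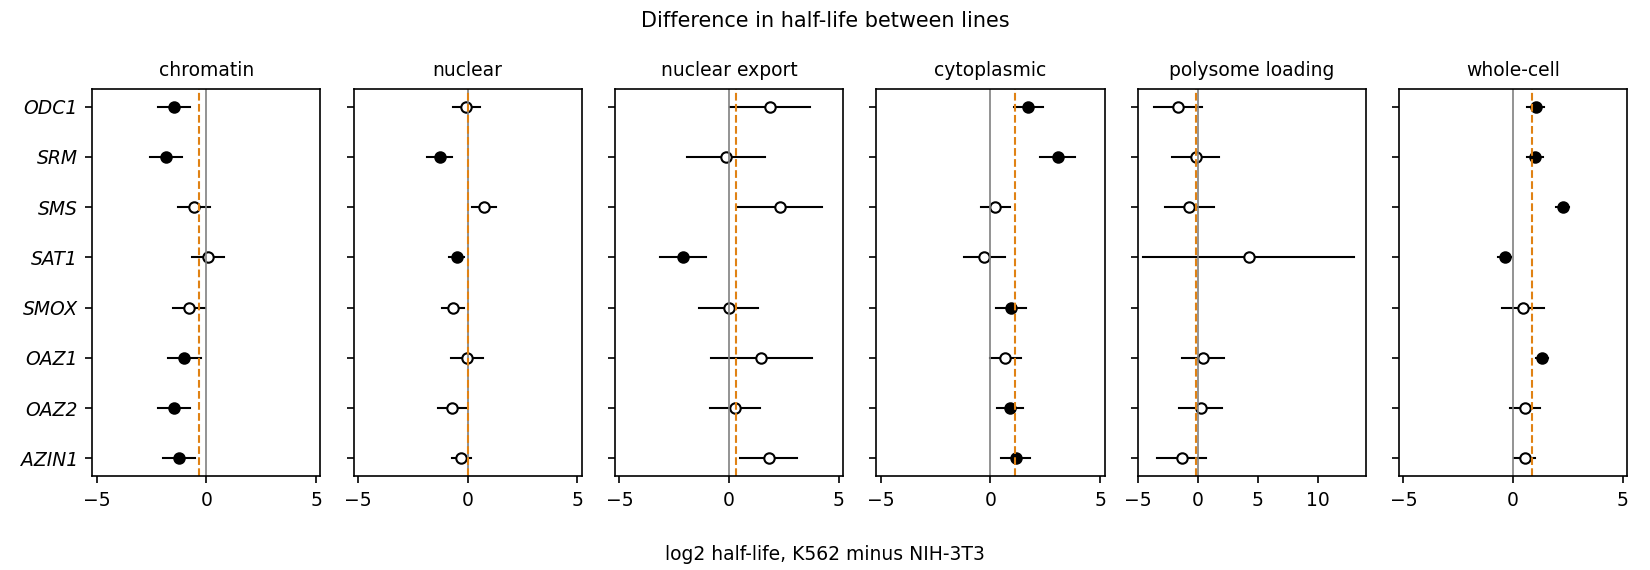
Difference in log2 half-life, K562 minus NIH-3T3, for 8 members and 6 kinds of half-life (panels; the loading panel has its own axis), with 95% confidence intervals from limma; filled circles passed at an adjusted p under 0.05, the grey line marks 0 and the dashed line the median of all genes. In the whole-cell panel SMS lies farthest above the dashed line and SAT1 farthest below it, and in the cytoplasmic panel SRM lies farthest above it.

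Ratios of steps were compared between the lines by the same limma model, a test of the change in balance itself. The ratio of nuclear to cytoplasmic half-life was lower in K562 for 5 of 8 members, beside 38.4% of 9087 genes, and higher for 0, beside 4.02%; the median of all genes was -1.08. SRM moved most, by -4.34 ± 0.48 (adjusted p = 0.0086), from a ratio of 5.77 and 2.75 in NIH-3T3 to 0.179 and 0.215 in K562. ODC1 (-1.79 ± 0.45), SMOX (-1.62 ± 0.31), OAZ2 (-1.61 ± 0.37) and AZIN1 (-1.46 ± 0.39) passed at adjusted p between 0.018 and 0.039. After centring SRM kept its call (-3.18 ± 0.48, adjusted p = 0.021), 1 of 8 beside 14.5%, and SMS was higher (1.66 ± 0.39, 0.043), 1 of 8 beside 15.5%. The other 4 did not pass after centring.

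The ratio of chromatin to export half-life was lower in K562 for ODC1 (-3.33 ± 0.89, adjusted p = 0.040) and AZIN1 (-3.05 ± 0.80, 0.039), 2 of 8 beside 5.21% of 9135 genes, and higher for 0, beside 1.92%. After centring both stayed lower, at -2.57 and -2.29, beside 6.95%, and SAT1 was higher (2.93 ± 0.56, adjusted p = 0.026), 1 of 8 beside 11.3%. The NIH-3T3 replicates lay far apart in this ratio, at 1.76 and 10 for Odc1 and at 3.84 and 9.40 for Azin1. The ratio of nuclear to whole-cell half-life was lower in K562 for 6 of 8 members (all but SAT1 and AZIN1), beside 46.2% of 8843 genes, and higher for 0, beside 0.294%. SRM (-2.28 ± 0.24, adjusted p = 0.019) and SMS (-1.54 ± 0.25, 0.019) moved most, and 0 of 8 passed after centring, beside 0.0113% in each direction. Counts of members called in these ratios moved strongly with single tables. Without K562 replicate 2, 3 were lower for nuclear to cytoplasmic half-life, beside 2270 of 9087 genes, 5 for nuclear to whole-cell half-life, beside 46.0%, and 0 for chromatin to export. Without NIH-3T3 replicate 1, 6 were lower for chromatin to export, beside 32.0%, and SAT1 was higher, beside 4.02%, while 0 of all genes passed for the other ratios. Without K562 replicate 1 or NIH-3T3 replicate 2, 0 members passed for each ratio, beside at most 0.799% of all genes. The member counts thus moved together with those of all genes. For the ratio of cytoplasmic to loading half-life, 0 of 8358 genes passed by limma and 1754 had an unadjusted p under 0.05.

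Genes around the members were described from a list of 22, most of which feed, use or move polyamines. All 22 had a row in both lines, and 16 to 18 had values in all 4 tables for a given half-life. Whole-cell half-life was longer in K562 for 11 of 17, beside the 60.2% of all genes given above, and shorter for 0, beside 5.06%. The median difference of the 17 was 0.78 beside 0.84 for all genes. MRI1, an enzyme of the methionine salvage that recycles the by-product of SRM and SMS, differed most, by 2.09 ± 0.12 (adjusted p = 0.0033), with 220 and 230 minutes in K562 against 49 and 57 minutes in NIH-3T3. After centring, MRI1 was the 1 gene of 17 to pass as longer (1.12), beside 18.2% of all genes. AHCY (-1.27), DOHH (-0.89), EIF5A (-0.75), EIF5A2 (-0.83), MAT2A (-0.60) and PAOX (-1.38) then passed as shorter, 6 of 17 beside 26.3%, MAT2A having passed as longer before centring (0.37). ENOPH1 (1.28 ± 0.09) and ADI1 (1.23 ± 0.13), of the same salvage route, and the polyamine transporter genes ATP13A2 (1.35 ± 0.24) and ATP13A3 (0.66 ± 0.09) passed before centring and not after it, at 0.31, 0.26, 0.38 and -0.30. Cytoplasmic half-life was longer for 10 of 17, beside 53.4% of all genes, and shorter for 0, beside 2.08%. After centring it was longer for 0, beside 9.84%, and shorter for 2 (MAT2A and SAT2), beside 14%. Chromatin residence was shorter for 7 of 18, beside 28.6%, AHCY (-2.26 ± 0.36), EIF5A (-2.28 ± 0.37) and DOHH (-2.04 ± 0.37) among them, and longer for MRI1 (1.23 ± 0.36), 1 beside 10%. After centring 7 were shorter, beside 26.8%, and 5 longer, beside 25.8%.

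Some genes of the list had values like those of single members. EIF5A, the factor that receives the hypusine group made from spermidine, had whole-cell half-lives of 790 and 730 minutes in K562 and 740 and 580 minutes in NIH-3T3 and loading half-lives of 0.97 and 5.3 minutes in K562 and of 2.2 and 1.8 minutes in NIH-3T3. Like ODC1 and OAZ1, it joined a long whole-cell half-life to a short loading one. MAT2A, which makes the methyl donor from which the aminopropyl donor is derived, had 47 and 46 minutes in K562 and 36 in both NIH-3T3 replicates, the shortest of the list in NIH-3T3. Its export half-life, 3.9 and 5.1 minutes in K562 and 9.6 and 2.1 minutes in NIH-3T3, was the shortest of the list in both lines. Nuclear degradation was called for 2 of 19 assessed genes of the list in NIH-3T3, Mri1 and Eif5a, beside 4.36% of all assessed genes. In K562 it was called for 0 of 18, beside 3.25%.

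Likeness of profile was measured over 12 values, 6 half-lives in 2 lines, as the root mean square difference in log2 after centring on the median gene, among 8224 genes with values in all tables. For ODC1 the nearest genes were HDLBP (0.42), HSPA4 (0.43) and KPNB1 (0.44), beside a median distance of 1.82 from ODC1 to all genes. For OAZ2 they were SETD3 (0.25), BTBD1 (0.26) and VPS25 (0.32), and for AZIN1 MTHFD2 (0.28), SART3 (0.32) and PPP4R1 (0.35). SRM had ACTR1A (0.28), PSMD11 (0.28) and AAMP (0.33), SMS had CNOT10 (0.50), MRPL37 (0.51) and DUT (0.52), and SAT1 had MTHFD2L (0.52), DNLZ (0.55) and RPAIN (0.56). Members were not each other's nearest genes: the closest pair, SRM and OAZ2, lay 0.53 apart, and the nearest member to SAT1, OAZ2, lay 1.98 away. ODC1 and OAZ1 lay 0.80 apart.

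Transcript features that the choice of members did not use were read from GENCODE for the human genes, with 17473 of 18165 K562 table genes matched. On build GRCh38, ODC1 lies at 10439968 to 10448504 of chromosome 2, SRM at 11054584 to 11060024 of chromosome 1, SMS at 21940573 to 21994835 and SAT1 at 23783173 to 23786226 of chromosome X. SMOX lies at 4120980 to 4187747 of chromosome 20, OAZ1 at 2269509 to 2273490 of chromosome 19 and OAZ2 at 64687573 to 64703281 of chromosome 15. The pentamer ATTTA, part of the AU-rich elements known from unstable mRNAs, was counted on the transcript strand of the 3′ UTR, overlaps included. It occurred 11 times in AZIN1, 6 times in AMD1, 2 times in SAT1 and OAZ2 and 1 time in OAZ1, SMS and SRM. ODC1 and SMOX had none, while 62.3% of all matched genes held at least 1. AZIN1 also had the longest 5′ UTR of the 9, 1164 bases at percentile 98.5 with 6 ATG triplets. ODC1 had 511 bases at percentile 89.1 with 2. OAZ1 (79 bases) and SRM (81 bases) had short 5′ UTRs without ATG, and 50.8% of all genes had at least 1. SAT1, the member with the shortest nuclear half-life, had the shortest coding sequence, 513 bases in 6 exons, at percentile 9.10. A count of letters is a description and says nothing of whether a site is used.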

How the data were processed

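RNA half-lives had been measured by metabolic labelling of fractionated K562 and NIH-3T3 cells. Per the submitters' processing notes, reads were trimmed with cutadapt 2.5 and aligned with STAR 2.7.0a to hg38 and mm10. The deposited tables (4, 2 per line, each from 25 samples) hold half-lives in minutes as posterior mode, posterior mean and 95% credible interval, and Bayes factors (other: no shared unit, not normalized between tables), all from the authors' kinetic fit, whose settings are not given in the sources used here. Values carry few digits and end at 6900 minutes. Read depth is unknown here.

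Genes were paired between lines by symbol (14100). Log2 modes, without pseudocount, were compared with limma 3.58.1 in R 4.3.3 (2 tables against 2, two-sided, Benjamini-Hochberg over all paired genes of a kind, threshold 0.05). The model was tested on simulated data first, with log2 differences of 2 or 3 put in. Each size was given to 89 to 111 of the 8358 to 9466 genes of a kind. At 2 it recovered 48.5% of them for chromatin, 61.7% for nuclear, 48% for cytoplasmic and 77.9% for whole-cell half-life. At 3 the shares were 85.4%, 84.0%, 62% and 82.3% in the same order. For export and loading it recovered 0 at both sizes. Recovery of differences under 2 was not tested. In the real fits larger shares of genes passed for most kinds, and the adjusted threshold depends on that share. The recovery given is therefore not the sensitivity of the real fits. Within a line, steps and member pairs were called apart where intervals did not overlap in both replicates. Percentiles use the geometric mean of both replicates. The replicate numbers of the 2 lines are not stated to mark a shared origin. Sequence features come from the GENCODE 29 transcript with the longest coding sequence; no protein or mouse sequence was used. Members are all named; genes of the wider list are named where called or at the ends of a range, and the 3 nearest genes by profile are given, except for OAZ1, for which they are not reported here. The members and lists were chosen with earlier results of these data known. Alternatives were the posterior mean, a replicate block, median centring, narrow intervals (at most 4-fold), a variance trend and leaving out each table.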

Additional observations from a re-analysis of the deposited data

Results flagged for a closer look

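Step ratios that differed between K562 and NIH-3T3 by limma (adjusted p under 0.05, K562 minus NIH-3T3 in log2) are listed as values. The ratio of nuclear to cytoplasmic half-life was lower in K562 for SRM (-4.34), ODC1 (-1.79), SMOX (-1.62), OAZ2 (-1.61) and AZIN1 (-1.46). Of chromatin to export half-life it was lower for ODC1 (-3.33) and AZIN1 (-3.05). Of nuclear to whole-cell half-life it was lower for SRM (-2.28), SMS (-1.54), OAZ1 (-1.34), OAZ2 (-1.28), SMOX (-1.13) and ODC1 (-1.09). With n = 2 tables per line no single table could be tested as standing apart.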

How the results depend on the processing

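Counts are of members called, main value first. Of the 31 called differences between lines, 13 kept their call and direction after centring, 24 with the posterior mean and 26 with the replicate block. With narrow intervals alone 30 could be tested and all 30 kept them. SMOX in nuclear to whole-cell was not among those tested. Of 18 half-life calls, 18 kept them with a variance trend. Centring on the table median moved nuclear half-life from 2 to 5, export from 1 to 3, cytoplasmic from 5 to 2, whole-cell from 5 to 2, nuclear to cytoplasmic from 5 to 2 and nuclear to whole-cell from 6 to 0. Centring removes the shift of all genes by construction; cytoplasmic AZIN1 (-0.058), OAZ2 (-0.34) and SMOX (-0.28) then changed sign. The posterior mean gave 1 for nuclear half-life and 0 for chromatin to export, and reversed OAZ1 in nuclear to whole-cell (0.31), where 1 K562 mean was 2000 minutes; narrow intervals gave 4 and 5, and left no member for loading. The replicate block gave 1 for nuclear half-life, 3 for export and 3 for cytoplasmic. Over genes, the difference between replicates in K562 correlated with that in NIH-3T3 at -0.05 to 0.02. This gave no sign that same-numbered tables pair. For steps within a line, requiring a 2-fold gap moved K562 nuclear to cytoplasmic from 4 to 2 and K562 chromatin to export from 5 to 3. It moved NIH-3T3 chromatin to export from 4 to 1. Testing the mean log2 ratio of the 2 replicate tables against 0 by limma gave 1, 2 and 1 for these. For NIH-3T3 cytoplasmic to loading it gave 0 instead of 8. The cause of the other changes was not tested.

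Leaving out each table in turn, where a lone table is assumed to vary like the other line, gave 0 to 1 for chromatin, 0 to 0 for nuclear, 0 to 0 for export, 0 to 1 for cytoplasmic, 0 to 0 for loading and 0 to 4 for whole-cell half-life. Ratios gave 0 to 3 (nuclear to cytoplasmic), 0 to 7 (chromatin to export), 0 to 0 (cytoplasmic to loading) and 0 to 5 (nuclear to whole-cell). Steps gave 6 to 7, 5 to 6 and 6 to 7 in K562 and 8 to 8, 5 to 8 and 8 to 9 in NIH-3T3, in the order nuclear to cytoplasmic, chromatin to export and cytoplasmic to loading. Member pairs apart, in the order chromatin, nuclear, export, cytoplasmic, loading and whole-cell, were 12 to 15, 21 to 22, 19 to 21, 18 to 19, 9 to 10 and 22 to 25 in K562, and 25 to 27, 26 to 27, 3 to 19, 26 to 28, 10 to 13 and 26 to 30 in NIH-3T3.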
